A study of Jatropha curcas with 10 samples.

Results

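Described here are 80 genes of Jatropha curcas inflorescence meristems whose values at 24 and 48 h after treatment with GA3 (gibberellic acid) lay below those at 0 h in every library. They were chosen by their own measured values from the 28447 gene IDs in the deposited tables. With L as log2(RPKM + 1) per library (RPKM, reads scaled to gene length and library size), a gene had to average 5 RPKM or more over the 10 libraries. Its mean L at 48 h had to lie below that at 0 h, and this 48 h change could be no higher than 0.5 times its change at either 6 or 12 h. The genes that met these conditions were ranked by a gap, the lowest 0 h library minus the highest of the 4 libraries of 24 and 48 h, and the first 80 were taken.

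Bulk tissue of 3-year-old plants from 1 locality was sampled, and the source labels name 5 times, 0, 6, 12, 24 and 48 h after GA3, with 2 libraries each. All groups carry the same treatment label, so the 0 h libraries are the reference and no untreated plants at later times were analysed here. The treatment and the time elapsed therefore cannot be told apart, and at 6 and 12 h the time of day cannot be separated from them either. By their labels, 24 and 48 h are whole days after 0 h, so the time of day is nominally the same there. The labels give neither the dose nor the mode of application, and do not say whether both libraries of a group stem from different plants, so a p-value here sets a difference against the spread of the libraries, which may be technical. Fewer cells of a type and less RNA per cell cannot be told apart in such tissue.

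Gibberellins are plant hormones that promote growth and, in many species, influence the transition to flowering and the development of flowers. They bind the receptor GID1, which leads to the breakdown of DELLA proteins, nuclear regulators that hold back growth-promoting transcription. The inflorescence meristem is the dividing tissue at the shoot tip that gives rise to the flowers. No names accompany the IDs in the deposited tables, and 0 of the 28447 IDs matched the RefSeq table of 28617 genes supplied for this species, so the members are given by ID, without gene names, roles, genome positions or sequences. The tissue label could not be checked against marker genes for the same reason.

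Of 14258 genes averaging 5 RPKM or more, 5409 met the conditions on the 48 h change, and 910 of these had a gap above 0. Among all 14258 genes, 1053 (7.39%) had every library of 24 and 48 h below both 0 h libraries, and 602 (4.22%) had every one above them. Both counts were made on the RPKM scale, where the means of 64.6% of all genes at 24 h and 51.2% at 48 h were below 0 h. With the libraries scaled by median-ratio size factors these shares were 46.1% and 46.5%, so no excess of low genes is read from the counts. The gap was 1.40 at rank 1, with a median of 0.64 over the members. The last member, at rank 80, had a gap of 0.51, from 52.6 RPKM in its lowest 0 h library to 36.8 RPKM in its highest later one. The first gene left out had a gap of 0.50, from 20.8 to 14.5 RPKM. There is thus no step in the ranking at the 80th gene, and the list is the upper end of a continuous series.

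**Figure D1:**
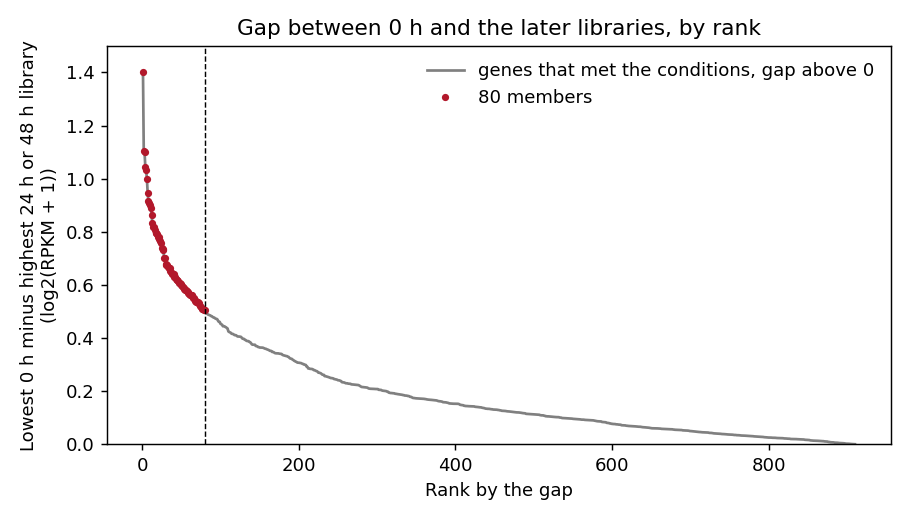
The gap (lowest 0 h library minus highest library of 24 or 48 h, log2(RPKM + 1)) is plotted against rank for the 910 genes that met the conditions and had a gap above 0, with the 80 members as points and a dashed line after rank 80. The gap runs from 1.40 at rank 1 to 0.51 at rank 80 with no break at the line.

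These values chose the members and are given as a description. No gene of the whole table was called on its own at these times, with 0 of 17403 genes under a limma adjusted p of 0.05 at 24 h or at 48 h against 0 h. At an unadjusted p under 0.05, which is no call, there were 574 of 17403 genes at 24 h and 793 of 17403 at 48 h. Limma's test on read counts, voom, also called 0 at both. The list is therefore a ranking of low values and not a set of called genes. Which genes it holds also depended on single libraries, since it kept 39 of its 80 members when library 1 of 0 h was left out and 24 when library 2 of 0 h was. Dropping library 1 of 24 h left 40 of them, dropping library 2 of 24 h left 49, and dropping library 2 of 48 h left 45.

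The members covered a wide range of abundance. Their mean at 0 h ran from 7.95 to 2677 RPKM with a median of 32.0 RPKM, against a median of 25.4 RPKM over the 14258 genes. At 0 h 21 of the 80 members (26.3%) had a mean of at least 100 RPKM, against 14.9% of all genes. The median level over the members was 20.5 RPKM after 6 h, 14.6 after 12 h, 13.3 after 24 h and 13.2 after 48 h. The member with the fewest reads in any library had 2 there, and the median of the lowest library was 107 reads.

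Expressed against 0 h on the log2(RPKM + 1) scale, the median change of the members was -0.86 after 6 h, -1.02 after 12 h, -1.19 after 24 h and -1.21 after 48 h, while the medians of all 14258 genes were 0.057, 0.090, -0.13 and -0.010. Scaling the libraries by median-ratio size factors moved the 24 h median of all genes to 0.034, a shift of over 0.1, and relative to it the 24 h median of the members was then -1.08. The mean RPKM of a member at 24 h was 17.5% to 67.5% of its 0 h mean, with a median of 41.7%. At 48 h it was 5.37% to 64.2%, with a median of 43.5%. In 53 of the 80 members the mean was at most 50% of 0 h at both times, and in 7 even the highest of the 4 later libraries was at most 50% of the lowest 0 h library.

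As a share of all reads, the members together took 0.567% and 0.475% in the 0 h libraries. They took 0.507% and 0.332% after 6 h, 0.330% and 0.201% after 12 h, 0.218% and 0.199% after 24 h, and 0.207% and 0.189% after 48 h. The libraries of 24 and 48 h all lay below 0.22%, while library 1 of 6 h overlapped the 0 h libraries. A large part of this share belonged to the most abundant member, JCGZ_20068 (459 coding bases). Without it the mean share was 0.398% at 0 h, 0.256% after 6 h, 0.200% after 12 h, 0.164% after 24 h and 0.143% after 48 h.

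JCGZ_20068 had 2735 and 2619 RPKM at 0 h, 4771 and 2347 after 6 h, 2118 and 729 after 12 h, 782 and 1156 after 24 h, and 1525 and 838 after 48 h. At 6 h its libraries lay on either side of the 0 h level, and from 12 h on all 6 were below it. The second most abundant member, JCGZ_10078 (825 bases), had 1064 and 448 RPKM at 0 h, 801 and 310 after 6 h, 282 and 82.9 after 12 h, 268 and 17.3 after 24 h, and 94.9 and 43.5 after 48 h. Library 2 was the lower of the 2 at every time, and the values at 12, 24 and 48 h lay under both 0 h libraries.

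The members differed in when they were low. In 51 of 80 both libraries of 6 h and both of 12 h were already below both 0 h libraries. In 14 this held after 12 h but not after 6 h, in 5 after 6 h but not after 12 h, and in the last 10 at neither time. Counted by time, both 6 h libraries were below 0 h in 56 members and both 12 h libraries in 65, where 17.6% and 16.2% of all 14258 genes were. In the other direction, 3 members had both 6 h libraries above 0 h and 3 had both 12 h libraries above, against 27.6% and 24.4% of all genes. All 8 treated libraries lay below both 0 h libraries in 3.25% of all genes. The selection used the 6 h and 12 h changes and the same 0 h libraries, so nothing is read from these counts.

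**Figure D2:**
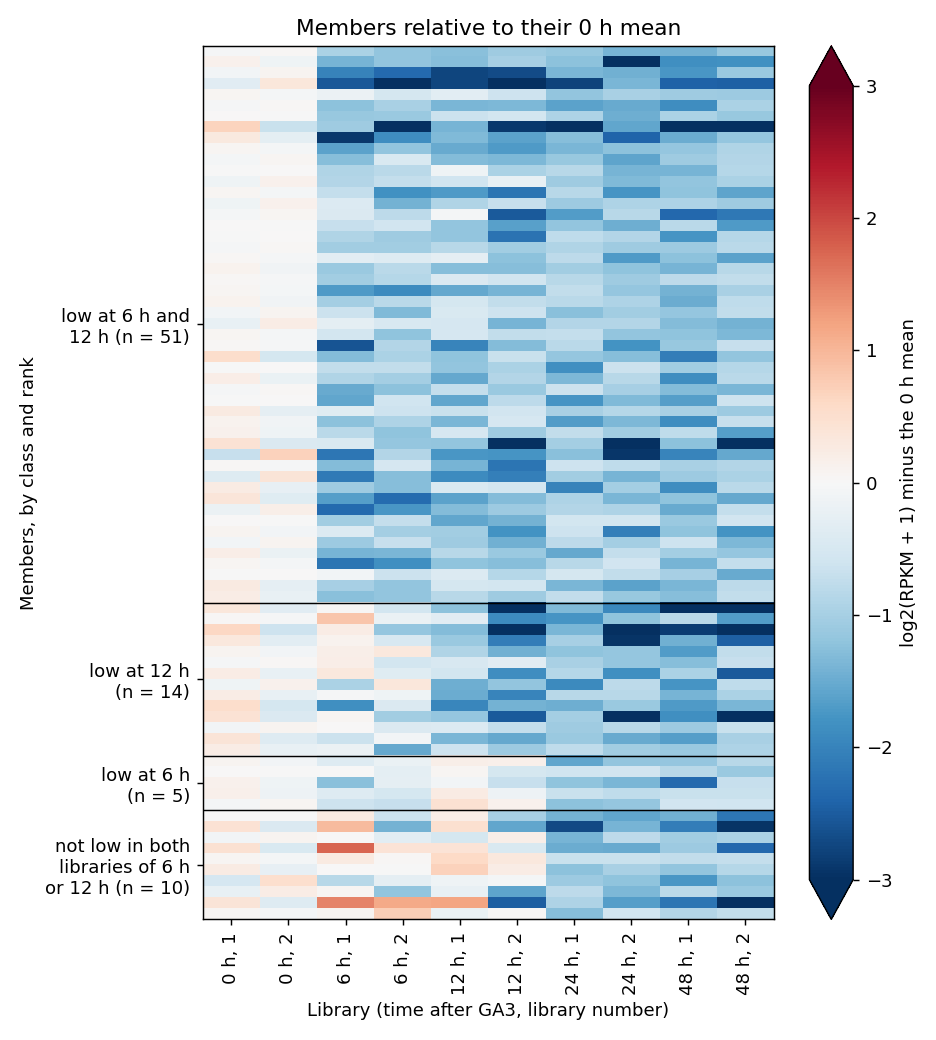
Each row is 1 of the 80 members and each column 1 of the 10 libraries; the colour gives log2(RPKM + 1) minus the member's 0 h mean, with the scale ending at 3 in either direction. The members are sorted into the 51 low at 6 and 12 h, the 14 low at 12 h, the 5 low at 6 h and the 10 low in both libraries of neither time, and the 4 columns of 24 and 48 h are below the 0 h level in every row.

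Among the 51 members that were low at all later times, the median change from 0 h was -1.05 after 6 h, -1.18 after 12 h, -1.19 after 24 h and -1.20 after 48 h. JCGZ_07564 (rank 2, 492 coding bases) is an example in which the libraries of a time lay close together. It had 95.6 and 99.4 RPKM at 0 h, 50.1 and 42.2 after 6 h, 40.4 and 45.7 after 12 h, 44.0 and 36.2 after 24 h, and 35.9 and 43.6 after 48 h. All 8 treated libraries fell between 35.9 and 50.1 RPKM, and the means of the 4 treated times, from 46.1 ± 5.62 to 39.8 ± 5.48 RPKM (SD, n = 2), differed by about as much as the libraries of a time did.

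By the mean of the 6 h and 12 h changes, the lowest members were JCGZ_24110 (1212 bases) and JCGZ_08647 (216 bases). JCGZ_24110 had 18.8 and 30.4 RPKM at 0 h, 3.26 and 1.01 after 6 h, 2.68 and 0.951 after 12 h, 2.64 and 8.67 after 24 h, and 3.64 and 3.53 after 48 h. Its 12 h libraries rested on 67 and 22 reads against 408 and 706 at 0 h. JCGZ_08647 had 146 and 57.7 RPKM at 0 h, 43.6 and 0.517 after 6 h, 34.3 and 11.4 after 12 h, 4.85 and 30.7 after 24 h, and 7.06 and 3.86 after 48 h. Library 2 of 6 h held 2 reads of this short gene where library 1 held 150, so its 6 h mean is set by how these libraries differ.

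The 14 members that were low after 12 h but not after 6 h had median changes from 0 h of -0.24 after 6 h, -1.39 after 12 h, -1.33 after 24 h and -1.28 after 48 h. Both most abundant members belong to this class. The 5 members low at 6 h but not at 12 h had medians of -0.45, 0.050, -1.19 and -0.97 at the same times.

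The 10 members that were low in both libraries at neither 6 nor 12 h had median changes of -0.076 after 6 h and -0.13 after 12 h, followed by -1.13 after 24 h and -1.25 after 48 h. Each of these 10 was lower at 24 h than at 12 h by its means, with a median difference of -1.08. The class required 12 h libraries that were not both low, and the ranking favoured low 24 h libraries. This fall is therefore tied to the class and the selection, and nothing is read from it. JCGZ_23007 (534 bases), which ranked 1, had 158 and 156 RPKM at 0 h, 190 and 99.3 after 6 h, 181 and 78.2 after 12 h, 58.4 and 52.5 after 24 h, and 57.1 and 33.8 after 48 h. At 6 and 12 h library 1 was above 0 h and library 2 below it, and only at 24 and 48 h were both low.

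By the same mean of both changes, the highest members were JCGZ_20962 (768 bases) and JCGZ_09555 (702 bases), although at 12 h alone their changes were -0.021 and -0.65. JCGZ_20962 had 16.1 and 8.09 RPKM at 0 h, 40.8 and 15.6 after 6 h, 15.6 and 8.11 after 12 h, 3.45 and 3.41 after 24 h, and 4.82 and 1.45 after 48 h. Its 6 h libraries overlapped those of 0 h, and its 24 and 48 h libraries did not. JCGZ_09555 had 93.6 and 54.2 RPKM at 0 h, 203 and 157 after 6 h, 163 and 11.9 after 12 h, 37.0 and 22.0 after 24 h, and 14.9 and 6.02 after 48 h. Both of its 6 h libraries were above both of 0 h, and the 12 h libraries lay on either side of it.

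**Figure D3:**
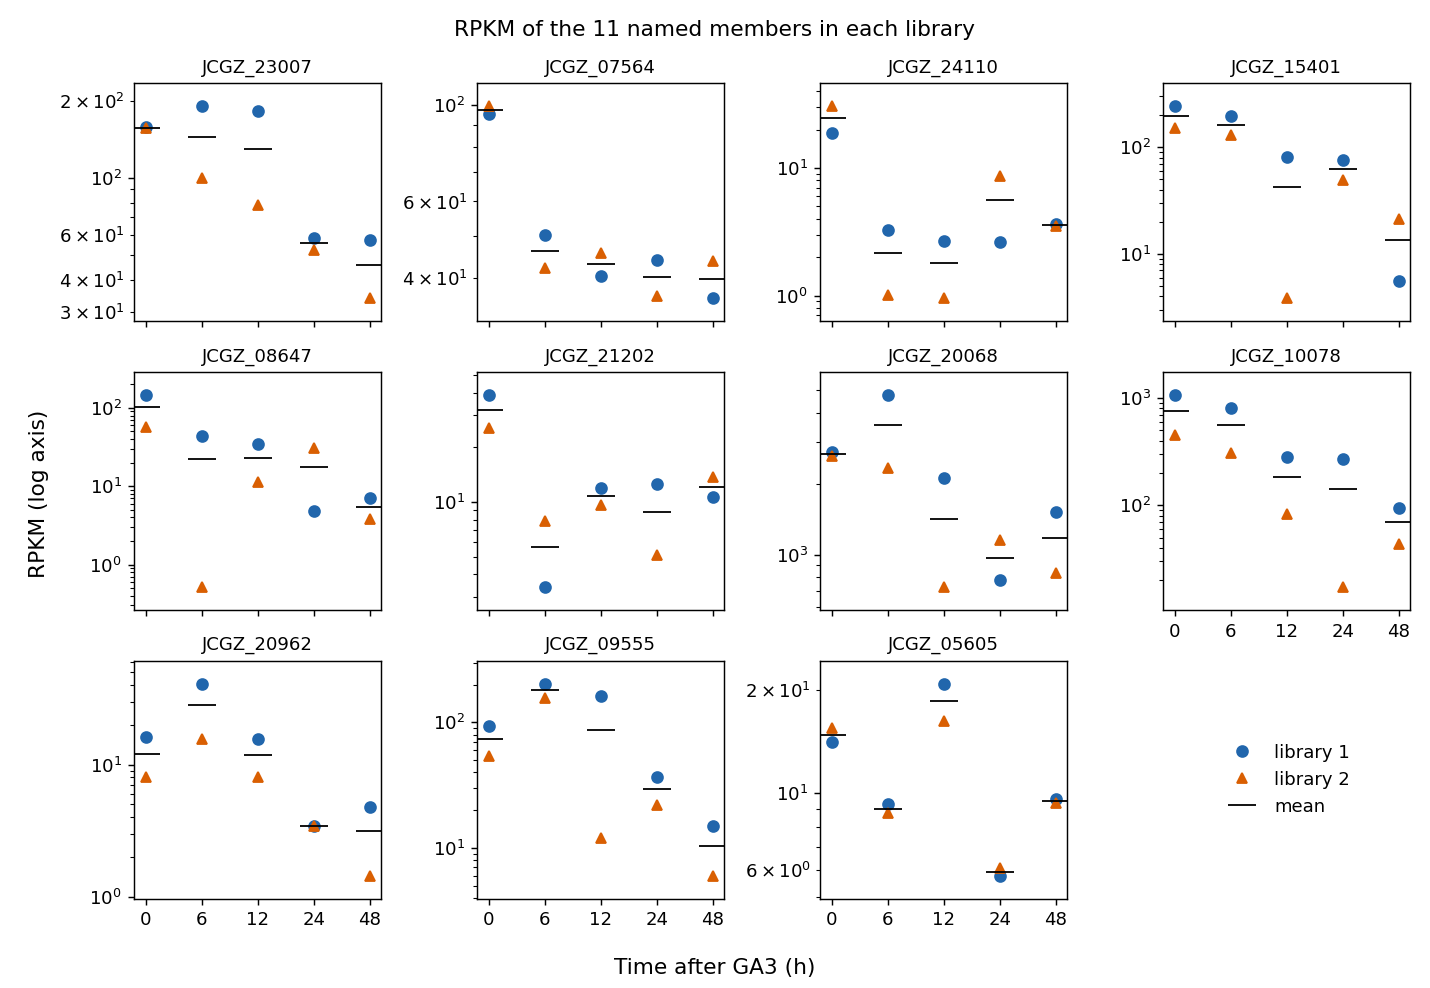
RPKM on a log axis is plotted against time after GA3 for the 11 members named by rule, with circles for library 1, triangles for library 2 and a bar for the mean of the 2. JCGZ_07564 is low from 6 h on with libraries close together, JCGZ_09555 and JCGZ_20962 have their highest mean at 6 h, and in JCGZ_15401 and JCGZ_08647 the libraries of a time can lie far apart.

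The selection set no condition on the differences 12 h minus 6 h and 48 h minus 24 h themselves, but it used the libraries behind them, so the counts and medians over the members are a description. From 6 to 12 h the members had a median difference of -0.17 (log2(RPKM + 1)), with quartiles of -0.58 and 0.31, where all 14258 genes had a median of 0.019 with quartiles of -0.18 and 0.22. The size of the difference, whatever its sign, had a median of 0.44 in the members and 0.20 in all genes. In 46 of the 80 members (57.5%) the libraries of the 2 times did not overlap, against 25.2% of all genes. Of these, 24 were lower at 12 h and 22 higher, where the shares of all genes were 14.1% and 11.1%.

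Tested across all genes, 0 of the 80 members passed at 12 h minus 6 h (limma, adjusted p under 0.05), against 22 of 17403 genes (0.126%). At an unadjusted p under 0.05 there were 10 of 80 members, 3 of them higher at 12 h, and 853 of 17403 genes, and voom called 0 members and 12 genes. Same-numbered libraries of the 4 treated times deviated together, so the fit was repeated on the 8 treated libraries with library number as a replicate block. This called 1 of the 80 members and 151 of 17344 genes, and nothing about the members is read from 1 call. At an unadjusted limma p under 0.05 this fit had 23 of 80 members and 1965 of 17344 genes. The block on all 10 libraries called 0 members and 55 of 17403 genes. The 1 member called was JCGZ_15467 (1479 bases), named after its values had been seen.

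JCGZ_15467 had 40.3 and 29.0 RPKM at 0 h, 33.5 and 31.1 after 6 h, 11.5 and 7.90 after 12 h, 18.7 and 18.6 after 24 h, and 12.4 and 17.2 after 48 h. Its 6 h libraries lay within the range of 0 h, and both 12 h libraries were the lowest of all 10. The difference of 12 h minus 6 h was -1.66 ± 0.28 (log2, SE), for which limma gave an adjusted p of 0.123. With the replicate block on the 8 treated libraries the SE was 0.24 and the limma adjusted p was 0.0329. The block on all 10 libraries gave an SE of 0.28 and a limma adjusted p of 0.0756. Over the alternatives that left out no single library, the adjusted p ran from 0.0329 to 0.647.

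The lowest values of 12 h minus 6 h were those of JCGZ_15401 (930 bases) at -3.02 ± 1.15 and of JCGZ_09555 at -1.96 ± 1.01 (log2, SE), with limma adjusted p of 0.859 and 0.9999. JCGZ_15401 had 241 and 151 RPKM at 0 h, 196 and 130 after 6 h, 81.1 and 3.83 after 12 h, 75.2 and 49.4 after 24 h, and 5.62 and 21.2 after 48 h. Its 12 h libraries were both below those of 6 h but differed from each other by more than those of 6 h did from 0 h. Leaving out 12 h library 1 or 2 gave differences of -5.06 and -0.97, a range set by that spread. For JCGZ_09555, leaving out the same libraries gave -3.79 and -0.13.

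The highest values of 12 h minus 6 h were those of JCGZ_08647 at 1.35 ± 1.46 and JCGZ_05605 (249 bases) at 0.95 ± 0.24 (log2, SE), with limma adjusted p of 0.9999 and 0.402. For JCGZ_08647 the value turned to -1.09 without 6 h library 2, the library with 2 reads. JCGZ_05605 had 14.1 and 15.5 RPKM at 0 h, 9.32 and 8.74 after 6 h, 20.8 and 16.2 after 12 h, 5.76 and 6.08 after 24 h, and 9.63 and 9.38 after 48 h. Its 12 h libraries were the highest of the 10 and its 24 h libraries the lowest, with no overlap between any 2 neighbouring times.

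The 4 libraries of 24 and 48 h were all used in the ranking, and a condition was set on the 48 h change but none on the 24 h change. The values of 48 h minus 24 h over the members are therefore a description, from which neither their size nor their direction is read. Their median difference was -0.025 with quartiles of -0.30 and 0.13, against 0.099 with quartiles of -0.17 and 0.37 in all genes. The order of the 2 times turned with the length trend of each library removed, where the median change of the members from 0 h was -1.28 for 24 h and -1.09 for 48 h, against -1.19 and -1.21 without this correction. All genes had -0.11 and -0.0099 with it. The size of the difference had a median of 0.23 in the members and 0.28 in all genes. The libraries of 24 and 48 h did not overlap in 19 of 80 members, against 26% of all genes. Of these 19, 14 were lower at 48 h and 5 higher, where 8.26% and 17.7% of all genes were.

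In the test of 48 h minus 24 h, 0 of 80 members and 0 of 17403 genes passed (limma, adjusted p under 0.05, a background of 0%). At an unadjusted p under 0.05 there were 1 of 80 members and 329 of 17403 genes, and voom called 0 genes. With the replicate block on the 8 treated libraries, limma again called 0 members and 0 genes. Its unadjusted p was under 0.05 for 2 of 80 members and for 3258 of 17344 genes, so the unadjusted count over all genes depended on the block. Without the block, the lowest values were those of JCGZ_15401 at -2.35 ± 1.15 and JCGZ_09555 at -1.49 ± 1.01 (log2, SE). These 2 also had the lowest values of 12 h minus 6 h. The highest were those of JCGZ_05605 at 0.60 ± 0.24 and JCGZ_21202 (423 bases) at 0.53 ± 0.47. The limma adjusted p was 0.905 for each of these 4.

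JCGZ_21202 had 38.8 and 25.7 RPKM at 0 h, 3.41 and 7.91 after 6 h, 12.0 and 9.66 after 12 h, 12.5 and 5.12 after 24 h, and 10.7 and 13.7 after 48 h. Its 24 and 48 h libraries overlapped, and without 24 h library 2 its difference of 48 h minus 24 h was -0.047. All 8 treated libraries of this member stayed below the 25.7 RPKM of 0 h library 2.

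**Figure D4:**
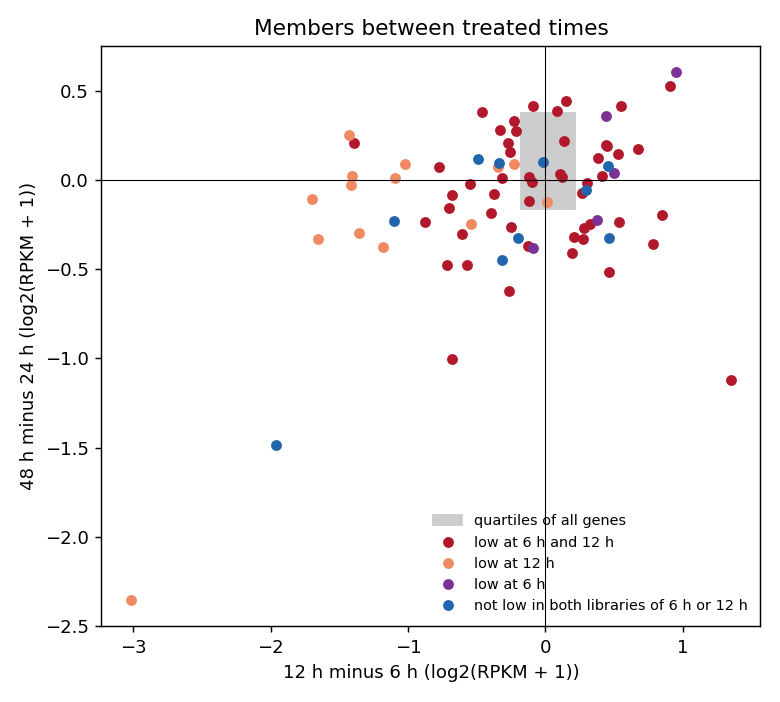
Each point is 1 of the 80 members, by 12 h minus 6 h on the x axis and 48 h minus 24 h on the y axis (both log2(RPKM + 1)), coloured by when it was low; the grey box spans the quartiles of all 14258 genes. The size of the difference had a median of 0.44 along the x axis and 0.23 along the y axis. The y axis comes from the 4 libraries that were used in ranking the genes. Whether the ranking affects the spread along it was not tested.

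Over the whole course 69 members had their highest mean at 0 h, 6 at 6 h and 5 at 12 h. The lowest mean was after 6 h in 10 members, after 12 h in 16, after 24 h in 25 and after 48 h in 29. From 12 to 24 h the members had a median difference of -0.22, close to the -0.21 of all genes, and 54 of 80 were lower at 24 h. From 6 to 48 h the median was -0.35 in the members and -0.043 in all genes. Both of these differences are tied to the selection and were not tested.

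The 2 libraries of a time differed most in the treated groups. The difference between library 1 and library 2, whatever its sign, had a median over the members of 0.20 at 0 h, 0.39 after 6 h, 0.39 after 12 h, 0.33 after 24 h and 0.44 after 48 h, against 0.29, 0.34, 0.48, 0.47 and 0.43 in all genes. The libraries of a time differed by over 1 (log2) in 6 of 80 members at 0 h, 14 after 24 h and 14 after 48 h. That is 7.5%, 17.5% and 17.5% of the members, against 4.02%, 16.8% and 13.3% of all genes. After 6 h it was 16 members against 7.41% of all genes, and after 12 h 13 members (16.25%) against 17.5%. Whether the ranking favours members with close libraries was not tested. In 11 of 80 members library 1 was over 1 (log2) above library 2 at 2 or more treated times, and in 2 members it was over 1 below at 2 or more. These counts were 906 (6.35%) and 1201 (8.42%) among all 14258 genes. What the library numbers stand for is not given in the labels.

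The members were shorter than most genes. The selection set no condition on length, but the 48 h change that it used moved with length over all genes. The lengths are therefore tied to the selection and given as a description. Their lengths, recovered from the values, had a median of 574.5 bases with quartiles of 373.5 and 928.5, while the 14258 genes had a median of 1098 with quartiles of 693 and 1632. Under 500 bases were 34 of the 80 members (42.5%) and 12.9% of all genes. The 910 genes with a gap above 0 from which the members were taken had a median of 826.5 bases, and the 602 genes with all later libraries above 0 h had a median of 1106.5. Of the members, 5 (6.25%) had IDs other than the JCGZ locus tags, which in all genes made up 3.49%.

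Length moved with the values of whole libraries, in opposite directions at the later times. Over the 14258 genes the change from 0 h had a Spearman correlation with length of -0.31 for 24 h and 0.37 for 48 h (computed over genes, which share the libraries and are not independent). Genes under 500 bases had a median change of 0.018 at 24 h and -0.21 at 48 h. The 34 members under 500 bases had medians of -1.19 and -1.26, and the 46 longer members had -1.23 and -1.13. With the length trend of each library removed, 45 of the 80 members were still among the first 80, and 77 kept a gap above 0. Their median changes were then -1.28 at 24 h and -1.09 at 48 h.

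**Figure D5:**
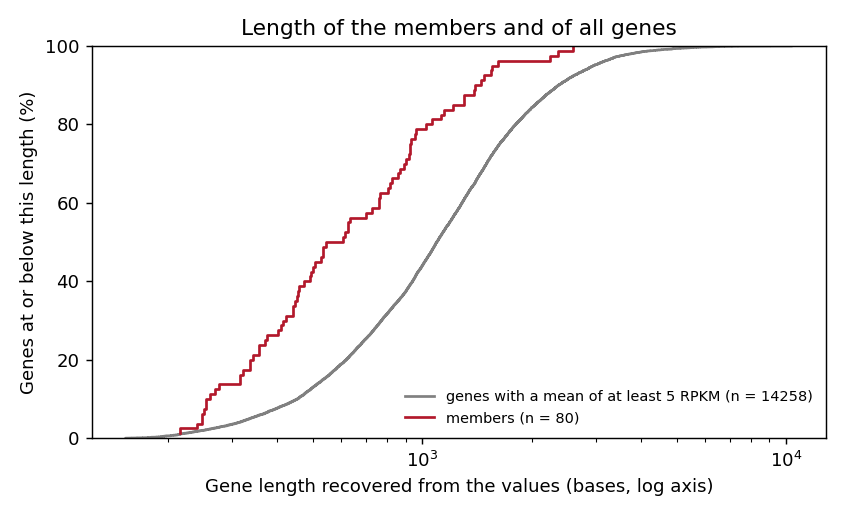
The percentage of genes at or below each length is plotted for the 80 members and the 14258 genes averaging 5 RPKM or more (lengths in bases recovered from the values, log axis). The curve of the members lies to the left, with medians of 574.5 and 1098 bases.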

How the data were processed

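Total RNA of inflorescence meristems was sequenced in 10 libraries. The tables deposited by the authors hold RPKM, that is, reads scaled by the length of the gene and the depth of the library. Per the file headers they give a gene ID and the library title without a unit, and the unit was inferred from the values. Bowtie 0.12.2 and mm8, a mouse build, are listed in the submitters' processing notes without a role. The plant genome, counter and annotation were not given in the sources used here.

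Reads and lengths were recovered from the RPKM values, and 100% of 203696 values above 0 were within 0.01 of a whole read. The search itself accepted only numbers this close, so that share is partly set by it. Of the lengths of JCGZ genes 99.9% could be divided by 3, a condition the search did not set, and they are therefore called coding lengths. Depth was 15934189 to 24448219 reads per library. At 1 kb, 3 reads correspond to 0.123 to 0.188 RPKM, which covers counting error only. The recovery and the limma fit were also run on simulated data. For limma the simulated libraries were independent, unlike the treated libraries here, and the planted changes were larger than the median changes of the members. Nothing about the members is read from that run.

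The test was limma (3.58.1, under R 4.3.3, with trend and robust moderation) on log2(RPKM + 1) of the 17403 genes averaging 1 RPKM or more, all libraries in 1 model with time as a factor, and Benjamini-Hochberg adjustment over all genes at 0.05. Such fold changes understate those of low genes. The recovered reads were tested with limma-voom as an alternative. Differences of library 1 and 2 correlated over genes at 0.54 to 0.70 between the treated times and at -0.32 to -0.14 between 0 h and each of them, so the numbers pair the treated libraries as read from the data, not from the labels. The alternatives were other pseudocounts, filters and scalings, removal of each library's length trend (loess, span 0.3), non-robust moderation, fewer libraries, a replicate block and leaving out each library.

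The members and comparisons were chosen with earlier results of these data known. Named by rule are ranks 1 and 2, the 2 highest at 0 h, and the 2 highest and 2 lowest by the mean 6 and 12 h change, by 12 h minus 6 h and by 48 h minus 24 h.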

Additional observations from a re-analysis of the deposited data

Results flagged for a closer look

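Some members lay above 0 h at 1 time and below it later, a difference that was not tested as such. In 3 members both libraries of 6 h were above both of 0 h, and in 3 others both libraries of 12 h were, while 27.6% and 24.4% of all 14258 genes were above 0 h in this way at 6 and 12 h. The selection used the 6 h and 12 h changes and the same 0 h libraries, so these counts are a description and nothing is read from them. The members at 6 h were JCGZ_09555, JCGZ_07744 and JCGZ_01035, and those at 12 h were JCGZ_05605, JCGZ_09295 and JCGZ_26908, of which all but JCGZ_09555 and JCGZ_05605 were named after their values had been seen. JCGZ_07744 went from 8.51 ± 0.66 RPKM at 0 h to 10.2 ± 0.76 at 6 h and 3.32 ± 1.90 at 48 h (SD, n = 2). JCGZ_01035 had 15.5 ± 0.99, 21.6 ± 7.18 and 8.42 ± 0.55 RPKM at these times. JCGZ_09295 had 40.9 ± 3.35 RPKM at 0 h, 45.7 ± 0.30 at 12 h and 15.4 ± 2.99 at 24 h. JCGZ_26908 had 32.9 ± 1.67, 45.7 ± 6.55 and 20.3 ± 0.021 RPKM at these times.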

How the results depend on the processing

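The count of members called at 48 h minus 24 h was 0 under all 23 alternatives, and that at 12 h minus 6 h was 0 under 21 and 1 with the replicate block on the 8 treated libraries, with or without the length correction. The replicate block on all 10 libraries called 0 members. Of the 80 members, 53 were kept with a mean of at least 1 RPKM, 58 with size factors and 45 with the length correction. When ranked by the difference of the means 22 were kept, and 24 to 78 when single libraries were left out. Leaving out a library of 0, 24 or 48 h can only widen a gene's gap or leave it as it was, so ranks shift by construction. The median change at 6 h was -0.89 and -0.71 with pseudocounts of 0.1 and 5, -0.90 with size factors and -0.89 to -0.80 without single libraries. At 24 h it was -1.29 and -0.98 with these pseudocounts, -1.05 with size factors, -1.28 with the length correction and -1.23 to -1.08 without single libraries. At 48 h it was -1.005 with a pseudocount of 5 and -1.26 to -1.02 without single libraries. All medians stayed below 0 under these alternatives. The members were held fixed here and had been chosen for low values in these same libraries, so nothing is read from this. Between 49 and 60 members had every treated library below 0 h, against 51. Among the changes of named members, that of JCGZ_08647 at 12 h minus 6 h ranged from -1.09 without 6 h library 2 to 3.79 without 6 h library 1, and that of JCGZ_21202 at 48 h minus 24 h from -0.047 without 24 h library 2 to 1.10 without 24 h library 1. Low read numbers limit short members, down to 2 reads in a library.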
